A study of Mus musculus with 30 samples.

Results

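A pair of CREST versions that differ at a single residue was set against each other in dorsal CA1 of the mouse. Y397D-T3 mice carried a plasmid encoding CREST with aspartate in place of a tyrosine (Y397D) and were trained for 3 min, a period below the threshold for object location memory. Y397F-T10 mice carried the same plasmid with phenylalanine at that residue (Y397F) and were trained for 10 min, a period above it. Both conditions comprise 6 mice, so the conditions compared hold 12 of the 30 libraries of the study, 1 library per mouse. The estimate of spread behind the tests over all rows came from all 30 libraries. Tested were the 13184 of 24883 rows of the expression table that averaged at least 1 FPKM over the 30 libraries (fragments counted on a gene, scaled by transcript length and library size). All mice were young adult C57BL/6J males without a germline mutation. The plasmids encoded HA-tagged mouse Crest under a shortened CaMK2 promoter, which restricts expression largely to excitatory neurons, and were infused into dorsal CA1 on both sides with in vivo-jetPEI 3 days before training. Endogenous CREST was still present in both conditions, and the share of cells that took up the plasmid is not given in the sources used here. Tissue was collected 1 h after training. The vehicle mice referred to below, VEH-T3 and VEH-T10, received jetPEI without DNA and the same 3 or 10 min of training. VEH-HC are vehicle mice kept in the home cage. They are shown in plots and otherwise enter only the row filter and the shared estimate of spread. Because the mutation and the training length changed together between Y397D-T3 and Y397F-T10, their contributions cannot be told apart in the direct comparison, and a second contrast therefore set each plasmid condition against the vehicle mice of its own training length.

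CREST, the product of Ss18l1, is a calcium-responsive transactivator and a subunit of the neuronal BAF complex, which moves nucleosomes with energy from ATP. Its C-terminal part binds the histone acetyltransferase CBP, and the mutated tyrosine lies there. Aspartate carries a negative charge and is used to mimic a phosphorylated tyrosine, whereas phenylalanine has the ring of tyrosine without the hydroxyl group that takes a phosphate. The paper did not succeed in detecting phosphorylation of this tyrosine and calls both versions point mutants. In CA1 neurons, learning opens calcium channels and activates kinases, and within the hour this induces immediate-early transcription factors such as Fos and the Egr genes, effectors such as Arc, and phosphatases that switch ERK signaling off again.

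The libraries of both conditions were alike in depth and did not separate by condition. Relative sequencing depth, read from the spacing of low FPKM values and scaled to a typical library, ran from 0.812 to 1.13 in Y397F-T10 and from 0.95 to 1.05 in Y397D-T3. Pearson correlations of log2(FPKM + 1) had a median of 0.977 over 30 pairs of libraries from the same condition and 0.978 over 36 pairs from different conditions. The first principal component of the 12 libraries held 44.9% of the variance and had Y397F-T10 mice at both ends. The labels name the tissue as dorsal hippocampus, and markers of several hippocampal neurons were present. The 6 markers of CA1 pyramidal neurons summed to 194 to 284 FPKM in Y397F-T10 and 222 to 298 FPKM in Y397D-T3. Those of CA2 and CA3 summed to 197 to 257 FPKM and 199 to 280 FPKM. Dentate granule cell markers varied more between mice, from 63.2 to 195 FPKM in Y397F-T10 and from 98.0 to 189 FPKM in Y397D-T3. Markers of choroid plexus epithelium varied far more than any other cell type list: the 10 markers summed to 10516 and 6407 FPKM in Y397F-T10 mice 2 and 4 and to 2872 FPKM in Y397D-T3 mouse 4, against 15.2 to 368 FPKM in the other 9 plasmid libraries. The counts and the main gene groups are therefore also given without these 3 libraries. In bulk tissue, fewer cells of a type and less RNA per cell cannot be told apart.

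Ss18l1 itself, whose transcript includes whatever the plasmid adds, differed little between the conditions. In Y397F-T10 its lowest, median and highest FPKM were 11.4, 12.5 and 14.0, and in Y397D-T3 they were 12.9, 13.7 and 14.0. The ranges overlapped, and the mean of log2(FPKM + 1) was 0.10 higher in Y397D-T3 (2-sided exact permutation test, n = 6 and 6, p = 0.0541, where the smallest p possible is 0.00216). Leaving out Y397F-T10 mouse 1 gave p = 0.00649 and leaving out Y397D-T3 mouse 3 gave p = 0.0411 in the same exact test. Leaving out any other single mouse gave p from 0.0541 to 0.0996. With libraries centred on their median and all mice kept, the exact test gave p = 0.121. Against vehicle mice of the same training, the difference was 0.07 for Y397D-T3 and 0.06 for Y397F-T10. VEH-T3 minus VEH-T10, without plasmid, was 0.10 as well, and the difference of the plasmid effects was 0.00. Reads of the endogenous gene and of the plasmid cannot be told apart.

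Few genes separated the Y397D-T3 from the Y397F-T10 mice. In limma with Benjamini-Hochberg adjustment, 8 of 13184 rows passed an adjusted p of 0.05, which is 0.0607% of the rows tested: 5 rose in Y397D-T3 relative to Y397F-T10 (0.0379%) and 3 fell (0.0228%). Without adjustment, 1210 rows (9.18%) had a p under 0.05, of which 822 were higher (6.23%) and 388 lower (2.94%) in Y397D-T3, where 659 rows in all would be reached if no gene differed and rows were independent. The 6 mice of one condition did not overlap the 6 of the other in 68 rows that were higher (0.516%) and 29 that were lower (0.22%). The log2 difference was small throughout, with a median of 0.01 and a 5th and 95th percentile of -0.25 and 0.18, and 52.8% of rows lay above 0 and 47.2% below. Without the 3 libraries rich in choroid plexus markers, which leaves 5 mice against 4, limma called 0 rows (unadjusted p under 0.05 in 538 rows on the higher side and 225 on the lower), and Gm12338 and Tmem263 had the lowest adjusted p (0.0832 and 0.0906).

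**Figure D1:**
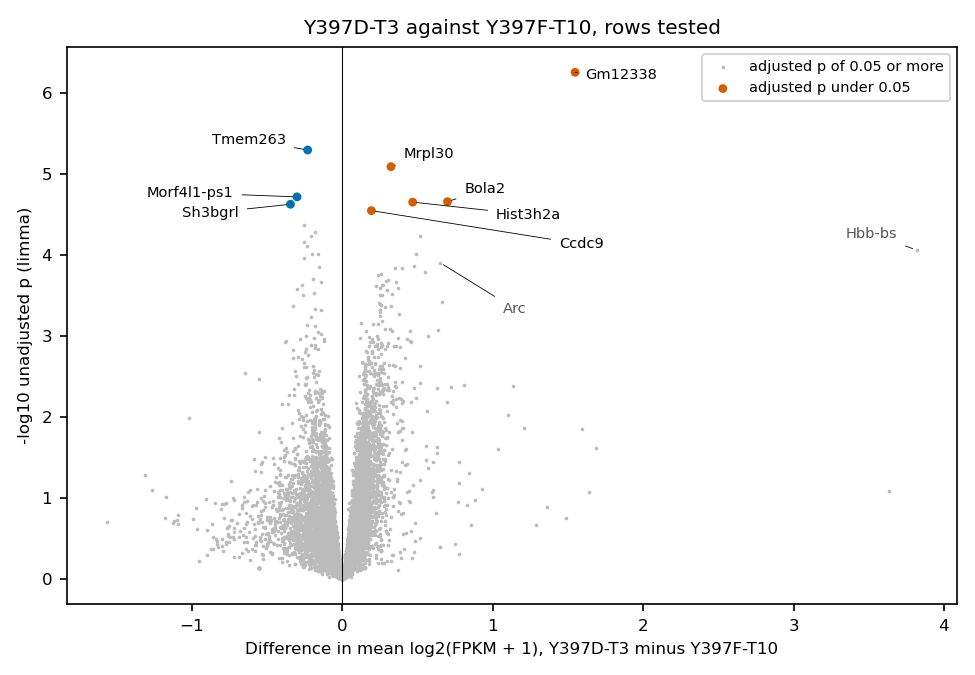
Each point is 1 of 13184 rows, with the difference in mean log2(FPKM + 1), Y397D-T3 minus Y397F-T10, on the x axis and the -log10 of limma's unadjusted p on the y axis. The 8 rows with an adjusted p under 0.05 are coloured and named, and Gm12338 lies apart from the other 7, while Hbb-bs and Arc are named in grey and did not pass.

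Of the 5 rows that rose, 4 are annotated as protein-coding genes. Mrpl30, a protein of the large subunit of the mitochondrial ribosome (1:37890477-37898535, GRCm38), had a lowest, median and highest FPKM of 57.8, 60.6 and 62.8 in Y397F-T10 and 68.6, 76.5 and 83.8 in Y397D-T3. Every Y397D-T3 mouse was above every Y397F-T10 mouse, and the gene rose by 0.32 ± 0.0593 (SE) on the log2 scale (limma, adjusted p = 0.0357). Bola2, which assembles with glutaredoxins to handle iron-sulfur clusters in the cytosol (7:126695401-126699798), had 103, 122 and 146 FPKM in Y397F-T10 and 172, 197 and 255 FPKM in Y397D-T3. It showed no overlap either and rose by 0.70 ± 0.137 (adjusted p = 0.0446), the largest change among the protein-coding genes that passed. Ccdc9, a coiled-coil protein (7:16274042-16286795), had 16.3, 16.6 and 17.1 FPKM in Y397F-T10 and 17.0, 19.4 and 20.6 FPKM in Y397D-T3. The lowest Y397D-T3 mouse fell just within the Y397F-T10 range, and the gene rose by 0.19 ± 0.0387 (adjusted p = 0.0467).

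The fourth is a core histone. Hist3h2a encodes an H2A histone (11:58954685-58956830) and had a lowest, median and highest FPKM of 47.4, 55.7 and 68.2 in Y397F-T10 and 70.7, 76.5 and 87.1 in Y397D-T3. The ranges did not overlap, and it rose by 0.47 ± 0.0919 (adjusted p = 0.0446). Its neighbour Hist3h2ba, an H2B gene on the same strand (11:58948920-58949533), had 38.2, 44.6 and 51.5 FPKM in Y397F-T10 and 56.4, 67.5 and 80.2 FPKM in Y397D-T3. These values did not overlap between conditions either, with a log2 difference of 0.55 ± 0.126, but the gene did not pass over all rows (adjusted p = 0.0853). An H2A and an H2B form the dimer that flanks the core of each nucleosome, and most clustered histone genes are transcribed in dividing cells.

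The promoters of this histone pair are shown because both genes lie within the same small cluster and every Y397D-T3 mouse exceeded every Y397F-T10 mouse for each. RefSeq (GRCm38.p6) lists them as H2aw for Hist3h2a and H2bu2 for Hist3h2ba. Each line gives the 250 bases before the transcription start, 5′ to 3′ on the plus strand, chr11:58954435-58954684 for Hist3h2a and chr11:58948661-58948910 for Hist3h2ba. Capitals mark the box CCAAT, the TATA element TATAA, the octamer ATGCAAAT and the CREB half-site CGTCA, each on either strand, none of which overlapped another.
Hist3h2a: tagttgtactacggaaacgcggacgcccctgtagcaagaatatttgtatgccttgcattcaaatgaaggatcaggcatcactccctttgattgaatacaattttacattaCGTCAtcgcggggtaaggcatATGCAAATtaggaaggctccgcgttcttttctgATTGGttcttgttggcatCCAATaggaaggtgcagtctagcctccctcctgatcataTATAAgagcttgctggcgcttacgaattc
Hist3h2ba: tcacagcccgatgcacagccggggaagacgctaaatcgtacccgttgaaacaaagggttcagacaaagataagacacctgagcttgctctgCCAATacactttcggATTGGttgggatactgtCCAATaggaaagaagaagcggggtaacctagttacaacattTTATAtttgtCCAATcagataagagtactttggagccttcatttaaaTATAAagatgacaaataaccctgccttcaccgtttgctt

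The letters CCAAT, a box bound by NF-Y, occurred 2 times before Hist3h2a and 4 times before Hist3h2ba, against 33.8% of 32851 promoter windows of this length with at least 1 match and 10.1% with at least 2. TATAA, part of the TATA box, was found once before Hist3h2a, its first base 29 bases before the start, and 2 times before Hist3h2ba, compared with 22.8% of windows with any match. Both CCAAT at least 2 times and TATAA were present in 2.17% of windows. The octamer ATGCAAAT was present before Hist3h2a alone of the pair and in 1.6% of windows. CGTCA, the core of the site that CREB binds, was likewise present before Hist3h2a, 140 bases before its start, and in 17.8% of windows. Among the other called genes with a promoter in the table, CGTCA was found before Mrpl30 and not in the windows of Bola2, Ccdc9, Tmem263 and Sh3bgrl. CCAAT was found once each before Bola2, Ccdc9 and Tmem263, and ATGCAAAT before Sh3bgrl.

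Of the 3 rows that fell, Tmem263 had the smallest p. Tmem263 encodes a small membrane protein (10:85102627-85120618) and had a lowest, median and highest FPKM of 7.55, 8.02 and 8.5 in Y397F-T10 and 6.45, 6.69 and 7.13 in Y397D-T3. No mouse of one condition reached the other, and the gene fell by 0.23 on the log2 scale (SE 0.0409, limma, adjusted p = 0.0334). It is also the only row that passed in Y397D-T3 against VEH-T3, where it fell by 0.24 (adjusted p = 0.0383), and no row passed in Y397F-T10 against VEH-T10. Sh3bgrl, a small thioredoxin-fold protein on the X chromosome (X:109095365-109197873), had 44.6, 48.8 and 56.1 FPKM in Y397F-T10 and 33.9, 38.6 and 45.0 FPKM in Y397D-T3. One Y397D-T3 mouse lay within the Y397F-T10 range, and the gene fell by 0.34 (SE 0.068, adjusted p = 0.0446).

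The remaining 2 rows are processed pseudogenes, outside the rule for named genes and named because they passed. Gm12338 is annotated as 192 bases (11:75599763-75599954) and had a lowest, median and highest FPKM of 2.64, 5.04 and 6.95 in Y397F-T10 and 14.9, 15.3 and 18.8 in Y397D-T3. It rose by 1.55 ± 0.239 with no overlap (limma, adjusted p = 0.00733), and kept its call with each of the 12 mice left out in turn, although not without the 3 choroid-rich libraries together (above). Morf4l1-ps1 (16:24529394-24530362), a retrocopy of the chromatin gene Morf4l1, had 5.57, 5.75 and 6.14 FPKM in Y397F-T10 and 3.98, 4.61 and 4.92 FPKM in Y397D-T3 and fell by 0.30 (SE 0.0585, adjusted p = 0.0446), again without overlap. Reads of such copies can come from their parent genes, so both values are uncertain.

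**Figure D2:**
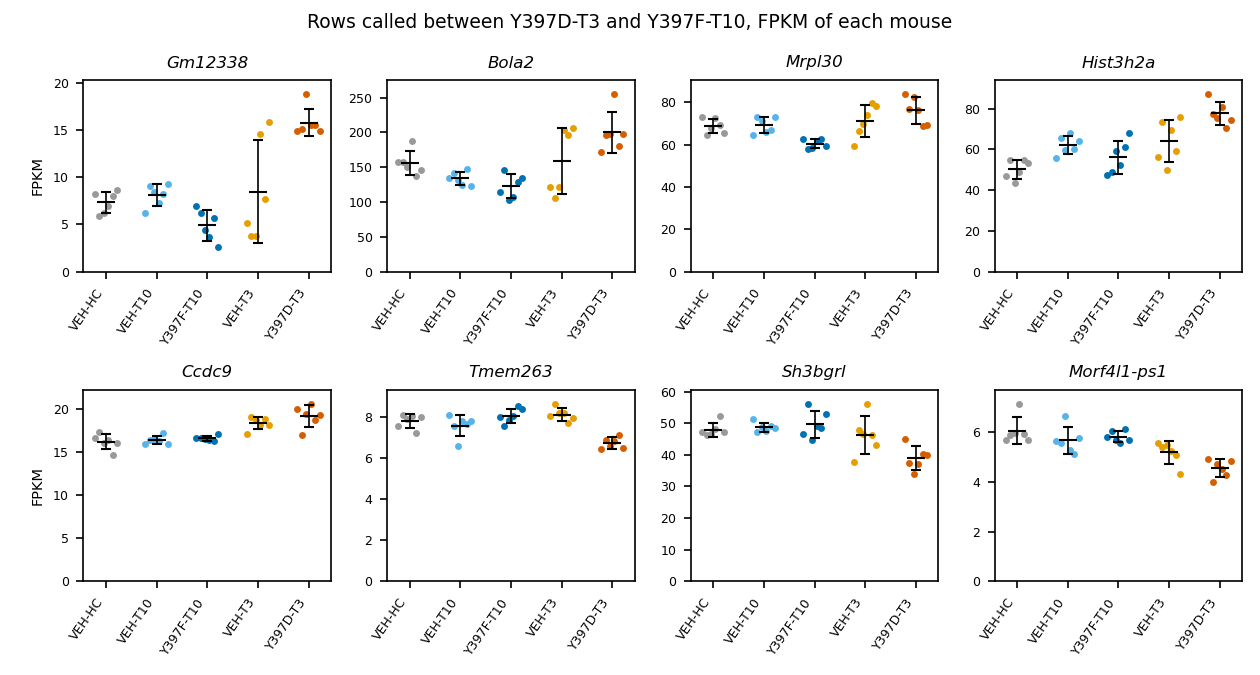
FPKM of the 8 called rows in each of 5 conditions, where each point is a mouse and bars are the mean ± SD of 6 mice. Y397D-T3 values lie above those of Y397F-T10 for Gm12338, Bola2, Mrpl30 and Hist3h2a and below them for Tmem263 and Morf4l1-ps1, and VEH-T3 mice spread over both ranges for Gm12338 and Bola2.

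Vehicle mice placed these genes in different ways. For Tmem263, 5 of 6 VEH-T3 and 5 of 6 VEH-T10 mice lay within the Y397F-T10 range, and VEH-T10 mouse 3, at 6.57 FPKM, lay within that of Y397D-T3. For Mrpl30 the low values belonged to Y397F-T10, since 4 of 6 VEH-T3 and 3 of 6 VEH-T10 mice lay within the Y397D-T3 range and 1 and 0 within that of Y397F-T10. For Ccdc9, all 6 VEH-T3 mice were within the Y397D-T3 range and none within the Y397F-T10 range, and VEH-T3 minus VEH-T10 was 0.15, close to the 0.19 between the plasmid conditions. For Bola2, VEH-T3 mice 1, 2 and 3 had 122, 106 and 121 FPKM, within the Y397F-T10 range, and mice 4, 5 and 6 had 203, 196 and 206 FPKM, within that of Y397D-T3. Gm12338 varied in the same condition from 3.75 to 15.9 FPKM, with 3 mice within the Y397F-T10 range and 1 within that of Y397D-T3. The spread of Bola2 and Gm12338 among mice of one vehicle condition was thus as wide as the gap between the plasmid conditions.

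Setting each plasmid against its own vehicle asks whether the effect of Y397D after 3 min differed from that of Y397F after 10 min. The difference of both effects passed for 4 of 13184 rows (0.0303%), all lower for Y397D, and for 0 rows that were higher, and an unadjusted p under 0.05 was reached by 1197 rows (9.08%), 745 on the higher side (5.65%) and 452 on the lower (3.43%). Tmem263 was the one gene called here and in the direct comparison, with a difference of effects of -0.32 ± 0.0578 (limma, adjusted p = 0.0228). Rlim, a ubiquitin ligase, had a median of 7.79 FPKM in Y397F-T10 against 6.58 FPKM in its vehicle, and of 7.04 FPKM in Y397D-T3 against 8.1 FPKM in its vehicle. Its level was thus higher with the Y397F plasmid and lower with the Y397D plasmid than in the matched vehicle, and the difference of effects was -0.38 ± 0.0681 (adjusted p = 0.0228). Lrrc58, a leucine-rich repeat protein, followed the same order with a difference of -0.37 ± 0.0656 (adjusted p = 0.0228). Rlim and Lrrc58 also rose in the vehicle mice with the shorter training relative to the longer, by 0.26 (adjusted p = 0.0313) and 0.27 (adjusted p = 0.0152), so their difference of effects contains a change between the vehicle conditions. Direct values of Rlim and Lrrc58 between the plasmid conditions were -0.12 and -0.09 and did not pass. Under 5 alternatives, 0 rows passed, with 740 to 1225 rows at an unadjusted p under 0.05. They variously centred the libraries on their median, removed a length and GC trend, kept only the compared libraries or added a replicate block. The last left out the choroid-rich plasmid libraries but kept every vehicle library. Choroid plexus markers summed to 11.4 to 4515 FPKM in VEH-T10 and to 31.1 to 12920 FPKM in VEH-T3.

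Training length alone, as VEH-T3 against VEH-T10, compares mice other than those of the plasmid comparison, although the estimate of spread is shared. It passed for 6 rows (0.0455%), all higher in VEH-T3, while 1075 rows (8.15%) had an unadjusted p under 0.05, 594 on the higher side (4.51%) and 481 on the lower (3.65%). These calls, Rlim and Lrrc58 included, were lost in 4 alternatives, with 0 rows called when libraries were centred on their median, when only those libraries were fitted, with a replicate block and with the length and GC trend removed. When centred, an unadjusted p under 0.05 was reached by 431 rows on the higher side and 541 on the lower. Lrrc58, Nucks1, Rc3h1, Rlim and Tbl1xr1 are among the 6, and the plasmid differences of these genes ran from -0.12 to 0.06, none of which passed. Across all tested rows, the plasmid difference and the vehicle difference had a Pearson r of 0.08 and a Spearman rho of 0.04, and 50.1% of rows had the same sign, a description across genes that are not independent replicates. Of the 8 rows called between the plasmid conditions, 6 had the same sign between the vehicle conditions.

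Activity-induced genes were led by Arc. Arc, which encodes a capsid-like protein that removes AMPA receptors from synapses, had a lowest, median and highest FPKM of 28.9, 33.4 and 36.8 in Y397F-T10 and 33.5, 54.8 and 75.5 in Y397D-T3. In Y397D-T3, 5 of 6 mice exceeded every Y397F-T10 mouse, and the sixth, mouse 3, lay at 33.5 FPKM within their range. The log2 difference of 0.65 ± 0.146 did not pass over all rows (limma, adjusted p = 0.0799), with Y397D-T3 at 0.30 above VEH-T3 and Y397F-T10 at -0.29 from VEH-T10, neither of which passed. Arc was the 1 of 30 activity-induced effectors with an unadjusted p under 0.05, and the list had a median of 0.02. Homer1, whose short form is induced by activity, had means of 23.5 FPKM in Y397F-T10 and 22.1 FPKM in Y397D-T3.

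Immediate-early transcription factors lay mostly above 0 without any that passed. The log2 difference was above 0 in 19 of 23 tested members, compared with 52.8% of all rows, with a median of 0.11, and 7 members were higher at an unadjusted p under 0.05 (6.23% of all rows) and none lower (2.94%). Nr4a1, a nuclear receptor, had 20.5, 24.1 and 26.8 FPKM in Y397F-T10 and 21.0, 33.8 and 42.9 FPKM in Y397D-T3 (log2 difference 0.42, adjusted p = 0.197). Nab2, a corepressor that binds Egr proteins, had 17.7, 18.8 and 20.2 FPKM against 18.6, 22.2 and 26 FPKM (0.23, adjusted p = 0.168). The ranges overlapped for both, and in both the highest Y397D-T3 value came from mouse 1 and the lowest from mouse 3, as for Arc. Ier2 (0.35), Klf10 (0.21), Junb (0.27), Jund (0.17) and Klf4 (0.17) were the other members at an unadjusted p under 0.05. Fos, Egr1 and Egr2 had ranges that overlapped, with means of 6.42 and 6.93 FPKM for Fos, 51.4 and 54.4 FPKM for Egr1 and 1.17 and 1.35 FPKM for Egr2 in Y397F-T10 and Y397D-T3.

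ERK feedback genes ran the same way at small size. All 11 tested members had a log2 difference above 0, against 52.8% of all rows, with a median of 0.11. Dusp6, the phosphatase that acts on ERK in the cytosol, had 19.8, 22.3 and 26.5 FPKM in Y397F-T10 and 19.5, 27.7 and 33.1 FPKM in Y397D-T3 (0.25, adjusted p = 0.411). Dusp1 (0.25) and Dusp5 (0.23), its nuclear relatives, were the other members at an unadjusted p under 0.05, and the Sprouty genes Spry1, Spry2 and Spry4 were at 0.07, 0.06 and 0.05. Without the choroid-rich libraries, 19 of 23 immediate-early members and 10 of 11 ERK feedback members were above 0, with medians of 0.20 and 0.13.

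**Figure D3:**
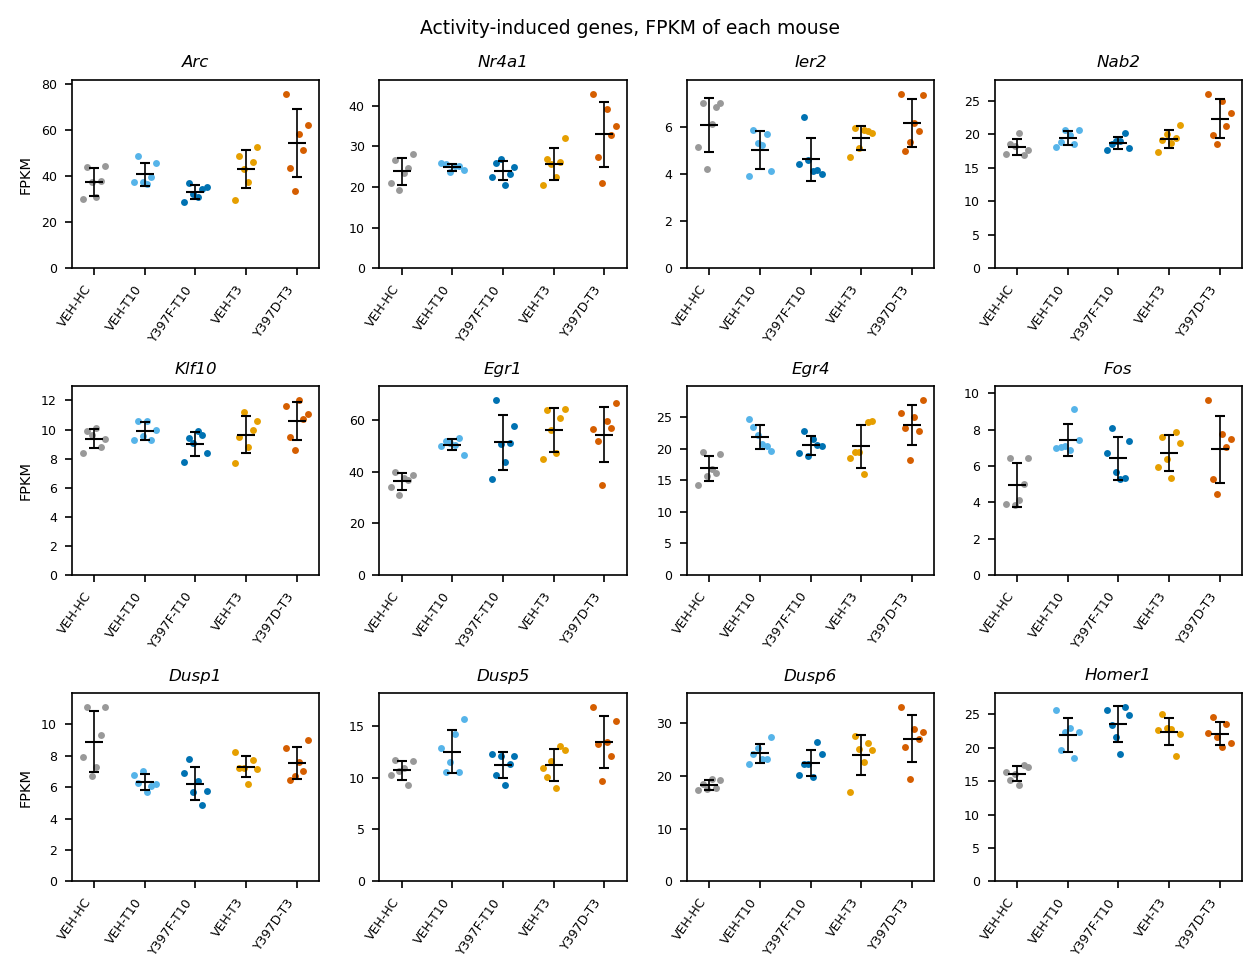
FPKM of 12 activity-induced genes in each of 5 conditions, where each point is a mouse and bars are the mean ± SD of 6 mice. Arc reaches 75.5 FPKM in Y397D-T3 against at most 36.8 FPKM in Y397F-T10, while Egr1, Fos and Homer1 cover overlapping ranges in both, and none of the 12 passed the adjusted threshold.

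The complexes that CREST joins differed little. Among 30 BAF subunits, none passed and 21 were above 0, against 52.8% of all rows. The median was 0.04, and that of the same list in VEH-T3 minus VEH-T10 was 0.05. The 4 members at an unadjusted p under 0.05 were Bcl11a (0.14), Bcl7a (0.10), Actl6b (0.17) and Gltscr1l (0.12), all higher (6.23% of all rows). Actl6b encodes the actin-related subunit specific to neurons and had means of 50.5 FPKM in Y397F-T10 and 56.6 FPKM in Y397D-T3 (adjusted p = 0.524). The ATPase subunits Smarca4 and Smarca2 were at -0.01 and -0.03. Among 23 genes for CBP, p300, CREB and coactivators, none reached an unadjusted p under 0.05 and the median was 0.03. Crebbp, which encodes CBP, had a lowest, median and highest FPKM of 6.53, 7.15 and 7.55 in Y397F-T10 and 6.48, 7.43 and 7.72 in Y397D-T3, a log2 difference of 0.04 ± 0.075. Of 28 histone deacetylase and corepressor genes, 19 were above 0 (median 0.04), with Sirt6 at 0.20 and Hdac5 at 0.11. Dot1l, the methylase of histone H3 lysine 79, stood out among 44 histone methylases and demethylases because its ranges did not overlap, with 8.11 to 9.52 FPKM in Y397F-T10 and 9.76 to 13.8 FPKM in Y397D-T3 (0.27, adjusted p = 0.218).

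Clustered histone genes were scattered rather than uniform. Of 75 rows in the table, 26 were tested, 1 passed (Hist3h2a), 17 were above 0 and the median was 0.15, with differences from -0.31 to 0.65. Removing a trend with transcript length and GC content lowered this median to 0.06 and left 14 above 0, while Hist3h2a kept its call (adjusted p = 0.0233). Hist1h2bf (0.63), the third member at an unadjusted p under 0.05, averaged 0.835 FPKM in Y397F-T10 and 1.72 FPKM in Y397D-T3. Many transcripts of this family lack a poly(A) tail and share near-identical sequences, so their values are uncertain.

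Glutamate receptor, vesicle release, voltage-gated channel and Eph genes lay mostly above 0, as did 52.8% of all rows, and no member of these lists passed. Of 36 glutamate receptor subunits and auxiliary proteins, 29 were above 0 with a median of 0.06. Cacng8, the TARP that sets AMPA receptor number at CA1 synapses, had 127, 147 and 155 FPKM in Y397F-T10 and 155, 166 and 183 FPKM in Y397D-T3 (0.25, adjusted p = 0.11). Its relative Cacng7 had ranges that did not overlap, 67.5 to 78 FPKM against 79.9 to 99 FPKM (0.25, adjusted p = 0.089). Grin2c, an NMDA receptor subunit, had means of 12 and 14.3 FPKM (0.24, adjusted p = 0.173), and Grin2b had means of 10.9 and 14.3 FPKM with an SD of 3.6 FPKM in Y397D-T3 (adjusted p = 0.606). Of 40 synaptic vesicle release genes, 38 were above 0, and the median was 0.07. Voltage-gated sodium, calcium and HCN channels were above 0 in 22 of 25, with a median of 0.10, and Cacna2d3 (0.16) had the smallest p. Eph receptors and ephrins were above 0 in 15 of 17, with a median of 0.13, and Epha10 had 5.84 to 7.95 FPKM in Y397F-T10 and 8.12 to 9.29 FPKM in Y397D-T3 (0.25, adjusted p = 0.126). Leaving out the choroid-rich libraries lowered the vesicle release median to 0.03 with 30 of 40 above 0, the glutamate receptor median to 0.03 with 22 of 36, and the voltage-gated channel median to 0.07 with 16 of 25. Eph genes then had a median of 0.11 with 16 of 17 above 0, and all rows a median of 0.02 with 7531 of 13184 above 0.

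Small proteins of the ribosome and the respiratory chain were above 0 in most members, and none passed. Of 84 nuclear-encoded subunits of oxidative phosphorylation, 66 were above 0 (median 0.06), 25 were higher at an unadjusted p under 0.05 against 6.23% of all rows, and 1 was lower. Cox6a1, a subunit of cytochrome c oxidase, had a lowest, median and highest FPKM of 905, 944 and 1033 in Y397F-T10 and 1078, 1258 and 1313 in Y397D-T3, without overlap (0.37, adjusted p = 0.089). Ndufc1 of complex I also showed no overlap, with 125 to 170 FPKM against 183 to 241 FPKM (0.45, adjusted p = 0.169). Ndufa5 (0.26) and Ndufa6 (0.25), from the same complex, had ranges that overlapped. Among 83 cytosolic ribosomal proteins, 66 were above 0 (median 0.08) and 8 were higher at an unadjusted p under 0.05. Rpl38, of the large subunit, was separate in all mice, with means of 977 and 1356 FPKM (0.48, adjusted p = 0.0799). Slirp (0.49, adjusted p = 0.0721), which stabilises mitochondrial mRNA, and the noncoding RNA Snhg20 (0.52, adjusted p = 0.0646), host of small nucleolar RNAs, were separate in all mice too. Without the choroid-rich libraries, 68 of 84 oxidative phosphorylation subunits and 71 of 83 ribosomal proteins were above 0, each list with a median of 0.10.

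Transcript length and base composition moved with this pattern. In the quintile of rows with the shortest transcripts, 10.2% reached an unadjusted p under 0.05 on the higher side and 1.83% on the lower, against 3.09% and 3.09% in the quintile with the longest. In the quintile with the highest GC content, 13.3% were higher and 0.764% lower, against 2.02% and 8.33% in the quintile with the lowest. Spearman rho across genes was 0.251 with GC content and -0.0867 with length for Y397D-T3 minus Y397F-T10, and -0.238 and 0.307 for VEH-T3 minus VEH-T10. With the length and GC trend removed from each library, 58 of 84 oxidative phosphorylation subunits and 58 of 83 ribosomal proteins were above 0, each with a median of 0.04. In that form 22 rows passed, 17 higher and 5 lower, and 7 of the 8 rows called without it were among them. Mrpl30 then had the smallest adjusted p, 0.00288, and Snhg20 and Slirp passed as well with adjusted p of 0.0334 and 0.0438. Sh3bgrl did not pass in that form (0.0995).

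**Figure D4:**
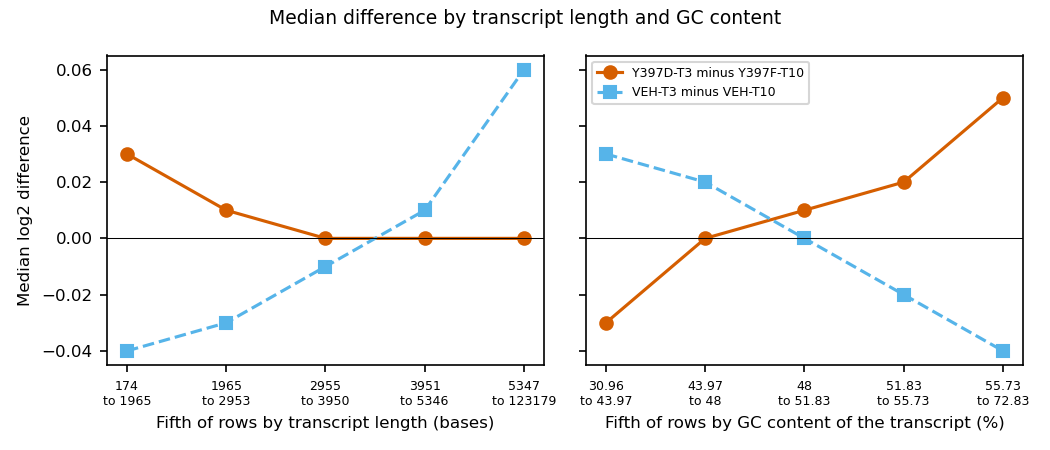
Median difference in log2(FPKM + 1) within quintiles of the tested rows ordered by transcript length (left) and by GC content (right), for Y397D-T3 minus Y397F-T10 (circles) and VEH-T3 minus VEH-T10 (squares). The plasmid medians run from -0.03 in the lowest GC quintile to 0.05 in the highest, and the vehicle medians run the opposite way from 0.03 to -0.04.

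Heat shock proteins lay mostly below 0 without any that passed. Of 23 members, 5 were above 0 and the median was -0.06, with 3 lower (2.94% of all rows) and 1 higher (6.23%) at an unadjusted p under 0.05. Hsp90b1 had a mean of 115 ± 19.1 FPKM (SD, n = 6) in Y397F-T10 and of 90.7 ± 5.83 FPKM in Y397D-T3, with ranges that overlapped (-0.33, adjusted p = 0.175). Hsp90b1 and Hspa5 encode chaperones of the endoplasmic reticulum. Hspa5, also known as BiP, had 87.8, 113 and 155 FPKM and 85.3, 88.3 and 103 FPKM (-0.33, adjusted p = 0.355). Hspa4, a cytosolic chaperone, was the other lower member at that p (-0.09, adjusted p = 0.516). Canx, a lectin chaperone outside this list and 1 of the 12 lower genes named by rule, had means of 78.2 and 67.3 FPKM (-0.21, adjusted p = 0.0646). For Hspa5 and Hsp90b1, the highest value was that of Y397F-T10 mouse 2, the library with the most choroid plexus markers, and without the 3 choroid-rich libraries the list still had 5 of 23 members above 0 and a median of -0.06. Hsf1, the transcription factor for cytosolic heat shock genes, was the member above 0 at an unadjusted p under 0.05 (0.17).

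The other genes nearest to the threshold on the lower side had ranges that were mostly separate. Fstl1, a secreted follistatin-like protein, had 10.8 to 12.4 FPKM in Y397F-T10 and 8.91 to 10.5 FPKM in Y397D-T3 (-0.26, adjusted p = 0.0623). Rab18, a GTPase of lipid droplets and the endoplasmic reticulum, had 32.8 to 34.5 FPKM against 28.9 to 31.9 FPKM (-0.16, adjusted p = 0.0799). Vma21, an assembly factor of the vacuolar proton pump, had 12.7 to 14.2 FPKM against 10.8 to 12.2 FPKM (-0.20, adjusted p = 0.0721). Tmem55a, Zbed5, Pdcl and Klhl9 were separate as well, at -0.18, -0.24, -0.26 and -0.20, whereas Fundc2 (-0.26) overlapped. Zbed5 was also at -0.24 in VEH-T3 minus VEH-T10 (limma, adjusted p = 0.0839), with a difference of effects of 0.00. The vehicle differences of Tmem55a, Pdcl and Klhl9 were 0.01, 0.07 and 0.07. None of these passed.

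Markers of choroid plexus, meninges, microglia and astrocytes lay mostly below 0, against 47.2% of all rows, and no member of these 4 lists passed. All 10 choroid plexus markers were below 0 with a median of -0.80, and the summed level was 30.5 to 10516 FPKM in Y397F-T10 and 15.2 to 2872 FPKM in Y397D-T3. Without the 3 choroid-rich libraries, 9 of 10 were above 0 and the median was 0.32, so the direction rested on those libraries. Meningeal fibroblast markers behaved likewise, from a median of -0.29 with 1 of 10 above 0 to 0.16 with 7 of 10. All 14 microglia markers were below 0 (median -0.16), and their sum ran from 400 to 1207 FPKM in Y397F-T10 and from 522 to 960 FPKM in Y397D-T3. Of 9 astrocyte markers, 1 was above 0 (median -0.15), with sums of 678 to 2008 FPKM and 848 to 1571 FPKM. These lists kept their side without the choroid-rich libraries, at -0.11 each with 1 of 14 and 0 of 9 members above 0. Between the vehicle conditions, VEH-T3 minus VEH-T10, the medians were -0.42 for microglia and -0.19 for astrocyte markers. That vehicle median was 0.95 for choroid plexus and 0.21 for meningeal fibroblast markers. None of the markers in these 4 lists was at 0 in all mice of either condition.

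Blood transcripts gave the widest single difference. Hbb-bs, an adult beta-globin gene, was listed near 0 in Y397F-T10 mice 2, 3, 4 and 6, with 4.79 and 13.1 FPKM in mice 1 and 5, and ranged from 4.84 to 79.6 FPKM in Y397D-T3 (log2 difference 3.82, adjusted p = 0.0721). Its near-identical copy Hbb-b1 had 140 to 836 FPKM in Y397F-T10 and 209 to 1025 FPKM in Y397D-T3, with a log2 difference of 0.30, and is named after its values were seen. The 8 erythroid rows together summed to 443 to 2514 FPKM and 1107 to 3257 FPKM. Because reads of Hbb-bs can be assigned to its copies, its value is uncertain.

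The genes that the study names from its sequencing data gave no call between the plasmid conditions. Of 28 tested rows, 23 were above 0 with a median of 0.11, and 2 had an unadjusted p under 0.05, Dusp6 and 1 of 2 rows of Atxn7l1. The study chose these genes on these samples, so their direction is not independent evidence. Hpca, a neuronal calcium sensor, had means of 1413 and 1599 FPKM (0.17, adjusted p = 0.658), Cabp7 had means of 107 and 119 FPKM (0.14, adjusted p = 0.618) and Egr4 had means of 20.6 and 23.8 FPKM (0.19, adjusted p = 0.548). Per2, a clock gene, was at 0.09 and Homer3 at 0.07. The 2 rows of Atxn7l1 lay on opposite sides, at 1.04 for the row counted above and at -0.72 for the other. The 4 rows of 4933409K07Rik ran from -1.09 to 1.64. For both symbols, reads can move between rows of the same symbol.

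**Figure D5:**
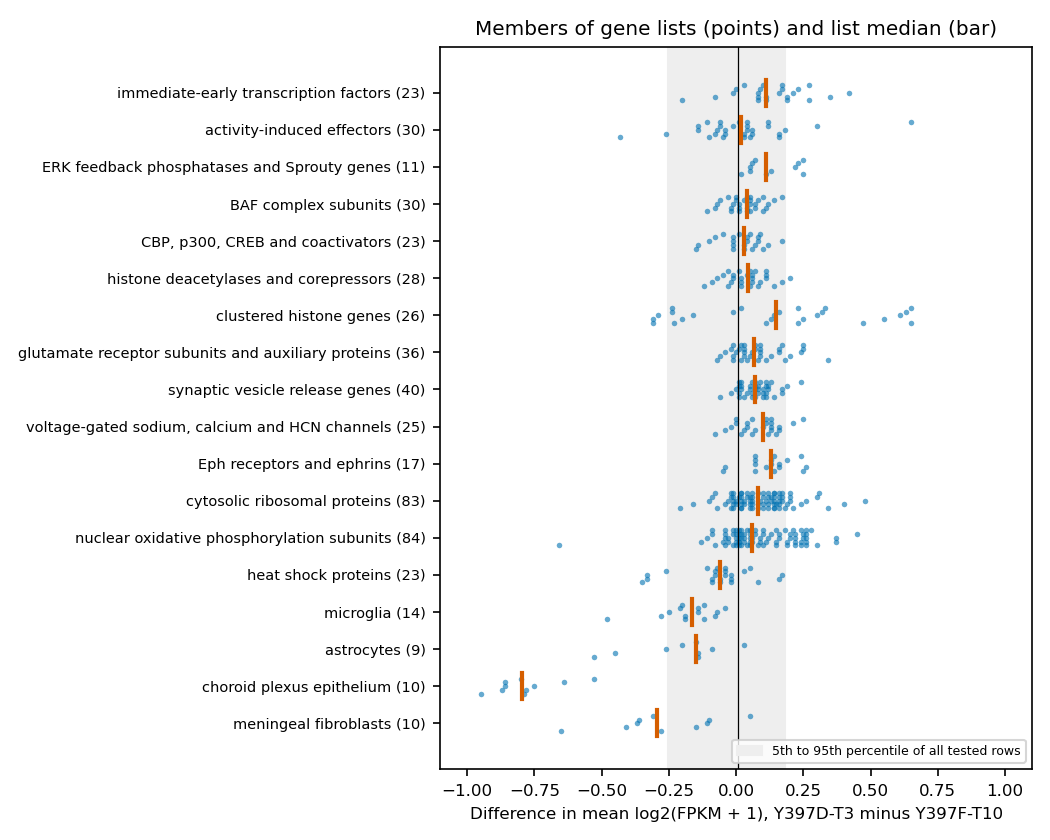
Difference in mean log2(FPKM + 1), Y397D-T3 minus Y397F-T10, for the members of 18 gene lists (points, number of tested rows in brackets) with each list's median (bar), the median of all rows (black line) and their 5th to 95th percentile (grey band, -0.25 to 0.18). Medians run from 0.15 for clustered histone genes down to -0.80 for choroid plexus epithelium, and most members lie within the grey band.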

How the data were processed

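RNA was sequenced from dorsal hippocampus of 30 mice, 1 library each, in 5 conditions of 6, and the 12 plasmid libraries were compared here. The authors aligned reads to mm10 with TopHat2 and computed FPKM values per gene with Cufflinks, and the deposited table holds these FPKM values for all libraries in 24883 rows, where the submitters' processing notes give TopHat2 2.1.1 and Cufflinks 2.2.1. Read counts are not used here, so depth is known only relative to other libraries, and 0 columns were left out. FPKM is a share of each library, so a few abundant transcripts can shift all others. Labels gave each mouse its condition, and nothing pairs mice across conditions.

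Rows with a mean of at least 1 FPKM over 30 libraries were analysed as log2(FPKM + 1), a scale that understates changes of low genes. limma 3.58.1 (R 4.3.3) was fitted with 1 coefficient per condition over all 30 libraries, so all conditions shared 1 estimate of spread, with a mean-variance trend, Benjamini-Hochberg adjustment over 13184 rows and a threshold of 0.05. Results are differences of log2(FPKM + 1) with standard errors. The fit was tested on simulated data. Single genes were tested by exact permutation (scipy 1.17.1). Figures used matplotlib 3.10.9. Gene positions, transcript length and GC content came from the GENCODE annotation of GRCm38, the assembly of mm10. As 280 symbols occupy 817 rows, rows were tested separately and also summed. Alternatives covered the pseudocount, filter, centring, libraries fitted, replicate block, length and GC trend, a Cyber-T-style test, unadjusted p and leaving out each mouse.

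Genes were named as the 12 higher and 12 lower with the largest difference among those that passed without overlap, filled by the smallest p, the 6 smallest p for the difference of plasmid effects, up to 4 per gene list and the genes the study names. Members and lists were chosen with earlier results of these data known. Some genes that meet this rule are not reported here.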

Additional observations from a re-analysis of the deposited data

Results flagged for a closer look

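In 4 of 116 groups of 6 mice examined, 1 mouse stood apart from the other 5 by Dixon's criterion (gap over range above 0.625), or 3.45%, where chance gives about 1 in 20. Bola2 was at 255 FPKM in Y397D-T3 mouse 4, against 172 to 198 FPKM in the other 5 mice. Gm12338 was at 18.8 FPKM in Y397D-T3 mouse 3, against 14.9 to 15.5 FPKM. Ier2 was at 6.4 FPKM in Y397F-T10 mouse 2, against 3.99 to 4.61 FPKM. Hbb-bs was at 13.1 FPKM in Y397F-T10 mouse 5, against 0.00195 to 4.79 FPKM.

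For 3 named genes the effect of the Y397D plasmid after 3 min differed from that of the Y397F plasmid after 10 min by limma's test of the difference of effects, each with a Benjamini-Hochberg adjusted p of 0.0228. The log2 difference of effects was -0.37 for Lrrc58, -0.38 for Rlim and -0.32 for Tmem263.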

How the results depend on the processing

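Between Y397D-T3 and Y397F-T10, limma called 8 rows as reported, 8 with a pseudocount of 0.1 and 9 with rows of a symbol summed. The count was 3 without a filter on low values, all 3 among the 8 as reported. With only the compared libraries it was 5, of which 2 were among the 8. With libraries centred on their median it was 16, of which 6 were among the 8. It was 22 with the length and GC trend removed, 0 without the choroid-rich libraries (763 at an unadjusted p under 0.05) and 1210 at limma's unadjusted p. A Cyber-T-style test gave 181 rows under 0.05, of which 6 were among the 8. Its p is adjusted over pairs of conditions but not over rows, so this count is not like limma's unadjusted count. Leaving out 1 mouse at a time gave 1 to 11 rows, lowest without Y397D-T3 mouse 4, Y397F-T10 mouse 3 or Y397F-T10 mouse 4 and highest without Y397F-T10 mouse 1. Of these 12 settings, Gm12338 was lost in 0, Tmem263 in 7, Mrpl30 in 8, Hist3h2a and Sh3bgrl in 10, Ccdc9 in 11 and Bola2 and Morf4l1-ps1 in 12. The difference of plasmid effects gave 4 rows, 1197 at the unadjusted p, and 0 to 4 with 1 mouse left out. It gave 0 when centred, with only the compared libraries, with the trend removed or without the choroid-rich plasmid libraries (vehicle libraries kept). These settings had 1163, 1098, 815 and 740 rows at an unadjusted p under 0.05. VEH-T3 against VEH-T10 gave 6 rows, 0 when centred, with only those libraries or with the trend removed (972, 842 and 822 at an unadjusted p under 0.05), and 1075 at the unadjusted p. The difference of Ss18l1 ran from 0.08 to 0.13 with 1 mouse left out. The cause of these changes was not tested.

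Replicate numbers belong to different mice, and same-numbered plasmid mice had correlations of deviations from -0.339 to 0.558, so the numbers do not pair them. With a replicate block, limma called 1 row between the plasmid conditions, 0 for the difference of effects and 0 between the vehicle conditions (1291, 1225 and 1087 at an unadjusted p under 0.05). Over 227 named genes and 4308 comparisons with alternatives, 4197 kept their side of the threshold, 91 lost it, 20 gained it and none of these turned direction past the threshold. Most named genes had not passed to begin with, so this total says little about the stability of the 8 called rows. Over 18 of these alternatives, Gm12338 was called in 18, Mrpl30 and Tmem263 in 8 each and Hist3h2a in 5. Bola2, Ccdc9 and Sh3bgrl were called in 4 each and Morf4l1-ps1 in 2. The alternatives for the vehicle conditions and for the choroid-rich libraries were chosen after seeing the data. Relative depth differed little between the compared conditions, and 6 mice each with a median standard error of 0.0785 limit what small differences can be seen.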

Other observations

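Gene groups not described above had no member that passed over all rows between Y397D-T3 and Y397F-T10. Potassium channels were above 0 in 47 of 64 (median 0.07), postsynaptic scaffolds in 13 of 16 (0.07), calcium/calmodulin kinases in 11 of 14 (0.09) and neuronal calcium sensors and buffers in 16 of 21 (0.06), against 52.8% of all rows. At an unadjusted p under 0.05, the members that were higher numbered 5, 3, 1 and 0 in that order (6.23% of all rows). Those that were lower numbered 1, 0, 0 and 0 (2.94%). GABA-A receptor subunits were above 0 in 5 of 12 (-0.01), cadherins and protocadherins in 36 of 73 (0.00) and proteasome subunits in 18 of 37 (0.00). Splicing factors of the SR and hnRNP families had a median of 0.00, and Hnrnpa1, which packages nascent transcripts, was lower in every Y397D-T3 mouse than in any Y397F-T10 mouse (-0.25, limma, adjusted p = 0.179).

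Glucocorticoid targets were above 0 in 6 of 18 (median -0.11), and Sgk1, a kinase induced by corticosterone, was at -0.55 (limma, adjusted p = 0.234). Without the choroid-rich libraries, 8 of 18 were above 0 with a median of -0.05. Interferon-stimulated genes were above 0 in 7 of 24 (-0.13), and in 10 of 24 with a median of -0.02 without the choroid-rich libraries. Circadian clock genes were above 0 in 13 of 20 (0.06). Oligodendrocyte markers were above 0 in 12 of 15 (0.05), ependymal markers in 2 of 8 (-0.16) and endothelial and mural markers in 5 of 16 (-0.06). The ependymal median was 0.37 without the choroid-rich libraries.

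The VEH-T3 mice 1 to 6, in label order, had 37.3, 52.5, 39.8, 67.5, 64.7 and 76.5 FPKM of Hist3h2ba, against 38.2 to 51.5 FPKM in Y397F-T10 and 56.4 to 80.2 FPKM in Y397D-T3.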
